A study of Drosophila melanogaster with 22 samples.

Results

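Heterochromatin is the compact, mostly silent share of the genome, and much of it carries methyl groups on lysine 9 of histone H3. Methyltransferases write this mark, proteins of the HP1 family bind it through their chromodomain, and SUMO ligases attach the small modifier SUMO to proteins that help to place it. In the fly ovary the mark is laid down in the germline and in the somatic cells of the germarium, where it silences transposons and keeps genes of the male germline off in female germ cells. The genes described here are 7 of the 17478 genes of the deposited annotation, chosen by their symbols as heterochromatin and H3K9 methylation genes. They are the methyltransferase genes Su(var)3-9, egg and G9a, the egg cofactor gene wde, the reader genes Su(var)205 and HP1c, and the SUMO ligase gene Su(var)2-10.

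RNA was sequenced from anterior ovarioles, the front ends of the egg-producing tubes with the germarium and young egg chambers, of virgin Drosophila melanogaster females of genotype w1118, a white-eyed laboratory strain. All flies were raised and aged at 25 degrees C under constant light, and a library was made from 200 ng of total RNA of 30 to 50 pooled ovarioles. The study followed the ovarioles over the first 8 days of adult life, and the labels call the libraries of a day independent biological replicates. Days 5, 6, 7 and 8 after eclosion have 3 libraries each, dissected to stage 7 egg chambers, and days 1, 2, 3 and 4 have 2, 3, 3 and 2 libraries, dissected to stage 8. Age and dissection therefore cannot be told apart between the older and the younger series.

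Gene counts per library were 2975582 to 4634327 in days 5 to 8 (n = 12) and 1146915 to 9781870 in days 1 to 4 (n = 10). Day 2 replicate 1, day 3 replicate 2 and day 4 replicate 2 stand apart: they held 31, 19 and 52 counts on the ERCC spike-in transcripts, against at least 25577 in each other library, and are called the libraries lacking spike-in below. Their gene counts were 9781870, 4126054 and 3648865, against at most 2573634 in the other libraries of days 1 to 4. Features of transposon insertions held 3.17, 4.11 and 2.64% of their counts, against at most 2.35% in those other libraries. The 8 germline markers, led by osk and orb, summed to 4866 to 6465 CPM (gene counts relative to library size, scaled by TMM) in days 5 to 8 and 4535 to 5371 CPM in days 1 to 4. Each of the 8 had counts in both series. Most of the sum was osk, with means of 2423 CPM in days 5 to 8 and 2042 CPM in days 1 to 4, and orb (1959 and 1765 CPM). The means of Sxl, bam and bgcn were also higher in days 5 to 8. Those of vas (226 and 274 CPM), nos (69.0 and 97.0 CPM) and otu (396 and 420 CPM) were lower. The 8 follicle and escort cell markers summed to 938 to 1327 CPM in days 5 to 8 and 546 to 1139 CPM in days 1 to 4. The 9 chorion markers of late follicle cells summed to 3.77 to 32.7 CPM in days 5 to 8 and 107 to 1634 CPM in days 1 to 4. The 6 muscle markers summed to 103 to 351 CPM in days 5 to 8 and 198 to 1323 CPM in days 1 to 4. The 5 haemocyte markers summed to 93.7 to 145 CPM in days 5 to 8 and 46.2 to 168 CPM in days 1 to 4, with He at 0 throughout. Most of this sum was srp, with means of 110 CPM in days 5 to 8 and 84.7 CPM in days 1 to 4. Pxn went the other way, at 9.22 and 17.0 CPM, as did Hml at 1.09 and 3.48 CPM and NimC1 at 0 and 0.302 CPM. The 5 fat body markers summed to at most 4.89 CPM. The part of these other cells in the results below was not tested, and in such bulk samples fewer cells of a type and less RNA per cell cannot be told apart.

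All 7 genes passed the filter on low counts. Coordinates are those of the deposited annotation, FlyBase release 6. Su(var)3-9 (FBgn0263755, 3R:15259864-15263458, minus strand) shares its first exons with the translation initiation gene eIF-2gamma (FBgn0263740) on the same strand. The shared stretch is 352 bp, or 14.8% of the 2386 bp of Su(var)3-9 exon, and the other 2034 bp are its own. The share of Su(var)3-9 counts that comes from the shared stretch was not measured, and how reads there were counted is not stated. egg (FBgn0086908, 2R:24775534-24779901, minus strand) has 3937 bp of exon, of which 629 bp lie opposite the noncoding gene CR44067. wde (FBgn0027499, 2R:10800420-10808938, minus strand) has 4856 bp of exon. G9a (FBgn0040372, X:245978-254650, plus strand) has 7235 bp of exon and is the longest of the 7.

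The reader genes are short. Su(var)205 (FBgn0003607, 2L:8209626-8211122, minus strand) has 1109 bp of exon, and HP1c (FBgn0039019, 3R:22745620-22746605, plus strand) is a single exon of 986 bp, of which 160 bp lie opposite CG17141. Su(var)2-10 (FBgn0003612, 2R:9116122-9122000, plus strand) has 5039 bp of exon in 14 annotated transcripts. The libraries are strand-specific per the labels, but which strand setting the counting used is stated in none of the sources used here.

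**Figure D1:**
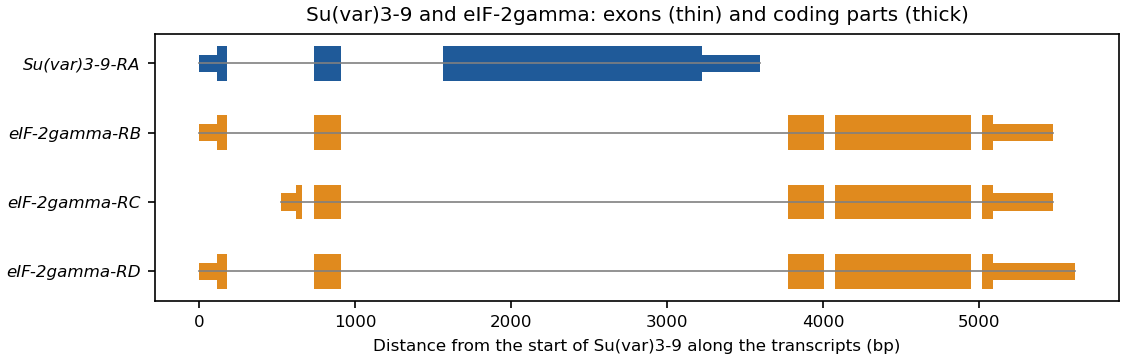
Exons of Su(var)3-9 (1 transcript, blue) and of the 3 transcripts of eIF-2gamma (orange), by distance in bp from the start of Su(var)3-9 along the transcripts; thick boxes are coding parts, thin boxes the rest of the exons and grey lines introns. The first exons of Su(var)3-9 are also exons of eIF-2gamma, 352 bp in all, while its last exon lies within an intron of eIF-2gamma.

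All 7 genes were transcribed in every library, and their levels spanned almost an order of magnitude. Levels of different genes are compared as CPM per kb of exon. In days 5 to 8, Su(var)205, which encodes HP1a, the founding member of the HP1 family, was first at 130 ± 14.7 CPM per kb (SD, n = 12), above 94.7% of the tested genes. G9a followed at 46.2 ± 4.95, Su(var)2-10 at 43.3 ± 4.47 and wde at 32.9 ± 6.87 CPM per kb. HP1c came next at 21.9 ± 4.24, then egg at 18.3 ± 1.99 and last Su(var)3-9 at 15.2 ± 3.18 CPM per kb, above 48.4% of the tested genes.

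The order of means over all libraries of days 1 to 4 was the same. Su(var)205 averaged 129 ± 27.8, G9a 52.6 ± 10.6, Su(var)2-10 41.3 ± 4.78, wde 33.5 ± 5.29, HP1c 21.98 ± 7.95, egg 17.8 ± 2.77 and Su(var)3-9 15.1 ± 2.85 CPM per kb (SD, n = 10). The gap between Su(var)205 and G9a was clear in both series, with no overlap of their ranges and Su(var)205 the higher in 12 of 12 and in 10 of 10 libraries. Each other pair of neighbours in the order overlapped. The order was not the same for both kinds of library in days 1 to 4. In the 3 libraries lacking spike-in, Su(var)2-10 (40.3 CPM per kb) stood above G9a (39.8) and HP1c (31.0) above wde (28.5), and in the other 7, egg (18.22) stood just above HP1c (18.11). HP1c was above egg in 9 of 12 libraries of days 5 to 8 and in 6 of 10 of days 1 to 4, and their difference within libraries was not tested. With the length taken without the exon bases shared with eIF-2gamma, Su(var)3-9 stood at 17.8 ± 3.73 CPM per kb in days 5 to 8 and 17.7 ± 3.34 CPM per kb in days 1 to 4. These were the lowest means of the 7, but within the SD of those of egg (18.3 and 17.8). In the 3 libraries lacking spike-in Su(var)3-9 then stood above egg (18.4 against 16.8 CPM per kb). Any counts from the shared stretch stayed in these values. eIF-2gamma itself had 170 CPM per kb in days 5 to 8 and 160 CPM per kb in days 1 to 4.

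**Figure D2:**
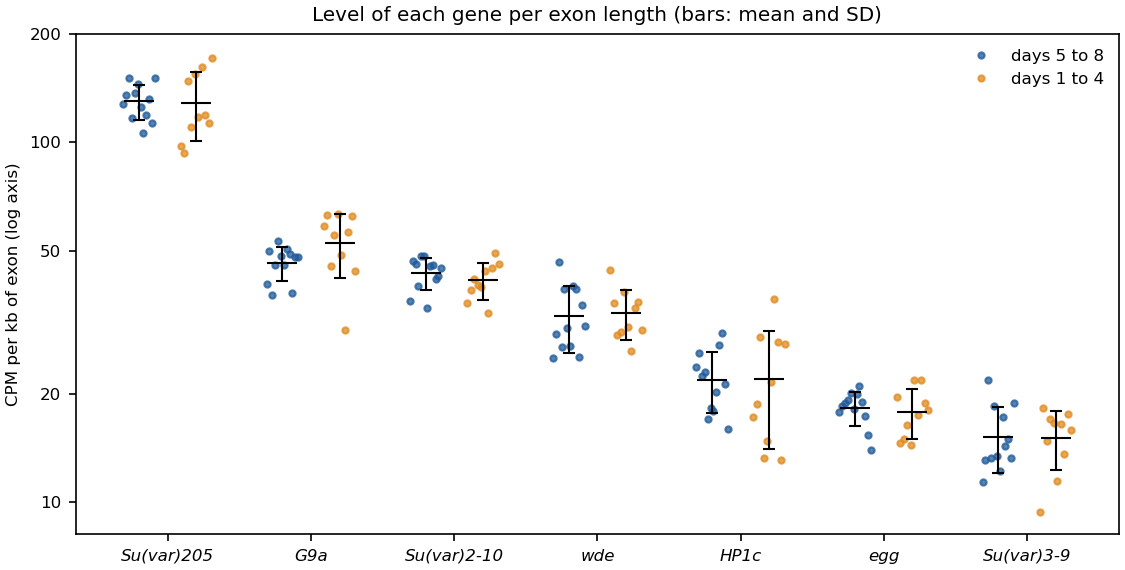
CPM per kb of exon (log axis) of the 7 genes, ordered by their mean in days 5 to 8; points are libraries, blue for days 5 to 8 (12) and orange for days 1 to 4 (10), and bars give the mean and SD. Su(var)205 lies above G9a in every library, and neighbours further down the order overlap.

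The methyltransferase genes and their cofactor gene are taken first, day by day in CPM. Su(var)3-9, whose protein methylates H3K9 in pericentric heterochromatin, had 27.2, 33.1 and 52.0 CPM as its lowest, median and highest values in days 5 to 8, and 22.5, 38.6 and 43.7 CPM in days 1 to 4. Its day means ran from 33.0 ± 6.05 CPM on day 3 to 39.9 ± 2.96 CPM on day 4 (SD, n = 3 and 2). None of the 28 pairs of days had ranges that did not overlap. The highest value, 52.0 CPM in day 5 replicate 3, stood beside 27.2 and 31.3 CPM in the other libraries of that day.

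egg encodes the SETDB1-type methyltransferase that ovarian germ cells and the somatic cells around them require. It had 55.0, 73.6 and 82.7 CPM as its lowest, median and highest values in days 5 to 8, and 56.7, 70.0 and 86.1 CPM in days 1 to 4. Day means were 67.3 ± 13.8 CPM on day 1, 60.0 ± 4.07 CPM on day 2, 80.3 ± 10.01 CPM on day 3 and 72.7 ± 2.19 CPM on day 4 (SD, n = 2, 3, 3 and 2). In the older series they were 72.4 ± 2.28 CPM for day 5, 75.6 ± 3.82 CPM for day 6, 78.7 ± 3.95 CPM for day 7 and 61.2 ± 6.57 CPM for day 8 (SD, n = 3 each). Days 2 and 8 were thus the lowest, and the 3 libraries of day 8 (68.1, 60.6 and 55.0 CPM) lay below every library of days 5, 6 and 7 (69.9 to 82.7 CPM). Of the 7 genes egg had the most pairs of days that did not overlap, 12 of 28. Neighbours in its order of means overlapped in 7 of 7 cases. The share of such pairs over all tested genes was not computed, and none of the tests between days given below called egg.

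wde, windei, encodes the partner that egg needs to methylate H3K9 in the germline. Its lowest, median and highest values were 122, 149 and 225 CPM in days 5 to 8, and 128, 159 and 214 CPM in days 1 to 4. The highest day was day 1 with 214 and 174 CPM, and the lowest was day 8 with 123, 171 and 150 CPM. The 3 libraries of day 5 spread from the lowest to the highest value of the older series, at 122, 142 and 225 CPM. The coefficient of variation over the 12 libraries of days 5 to 8 was 20.9%, above 90.7% of the 568 tested genes with a mean within 0.8 to 1.25 times that of wde, whose median was 11.9%. In days 1 to 4 it was 15.8%, above 43.2% of the 609 genes of like level and below their median of 16.9%.

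G9a encodes a methyltransferase that acts mainly on H3K9 in euchromatin. Its lowest, median and highest values were 273, 348 and 385 CPM in days 5 to 8, and 218, 404 and 457 CPM in days 1 to 4. The lowest value of all 22 libraries, 218 CPM in day 3 replicate 2, came from a library lacking spike-in, as did 327 CPM in day 2 replicate 1 and 318 CPM in day 4 replicate 2. The other 7 libraries of days 1 to 4 held 352 to 457 CPM, and 4 of the 12 libraries of days 5 to 8 exceeded the lowest of these.

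The reader genes come next. Su(var)205 had 117, 144 and 167 CPM as its lowest, median and highest values in days 5 to 8, and 104, 131 and 190 CPM in days 1 to 4. The lowest 2 of the 22 libraries were those of day 1, with 108 and 104 CPM. Day 2 had 164, 123 and 172 CPM, day 3 had 130, 180 and 132 CPM, and day 4 had 125 and 190 CPM. Day 1 did not overlap with any other day, while the other neighbours in the order of day means did overlap. Day 1 has only 2 libraries, and the share of tested genes with such a day was not computed. None of the tests between days given below called Su(var)205. The libraries lacking spike-in were the highest of day 3 and day 4.

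HP1c encodes an HP1 paralogue that is found mostly in euchromatin, and it had the fewest counts of the 7, at 16 to 297 per library. Its lowest, median and highest values were 15.8, 21.5 and 29.0 CPM in days 5 to 8, and 12.9, 19.9 and 36.2 CPM in days 1 to 4. Its spread was the widest of the 7 in days 1 to 4, with a coefficient of variation of 36.2%, above 82.7% of the 862 genes of like level. In days 5 to 8 it was 19.4%, above 38.4% of the 843 genes of like level. Day 3, with 21.3, 36.2 and 27.6 CPM, had the highest mean and day 1, with 17.0 and 18.5 CPM, the lowest.

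Su(var)2-10 encodes the PIAS-family SUMO ligase that in the fly germline links Piwi-guided silencing to the egg and wde complex. Its lowest, median and highest values were 175, 226 and 243 CPM in days 5 to 8, and 169, 206 and 248 CPM in days 1 to 4. It had the lowest coefficients of variation of the 7 genes, 10.3% in days 5 to 8 and 11.6% in days 1 to 4. In days 5 to 8 G9a (10.7%) and egg (10.9%) were close to it. Among genes of like level, the value of Su(var)2-10 was above 37.3% in days 5 to 8 and above 13.4% in days 1 to 4. For egg these shares were 22.2% and 30.8%. Day 1 was the lowest day at 180 and 196 CPM, and day 4 the highest at 248 and 231 CPM, and day 1 did not overlap with day 2, the next above it, while the other neighbours in the order of day means overlapped. How common such a gap is among all tested genes was not computed, and none of the tests between days given below called Su(var)2-10.

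**Figure D3:**
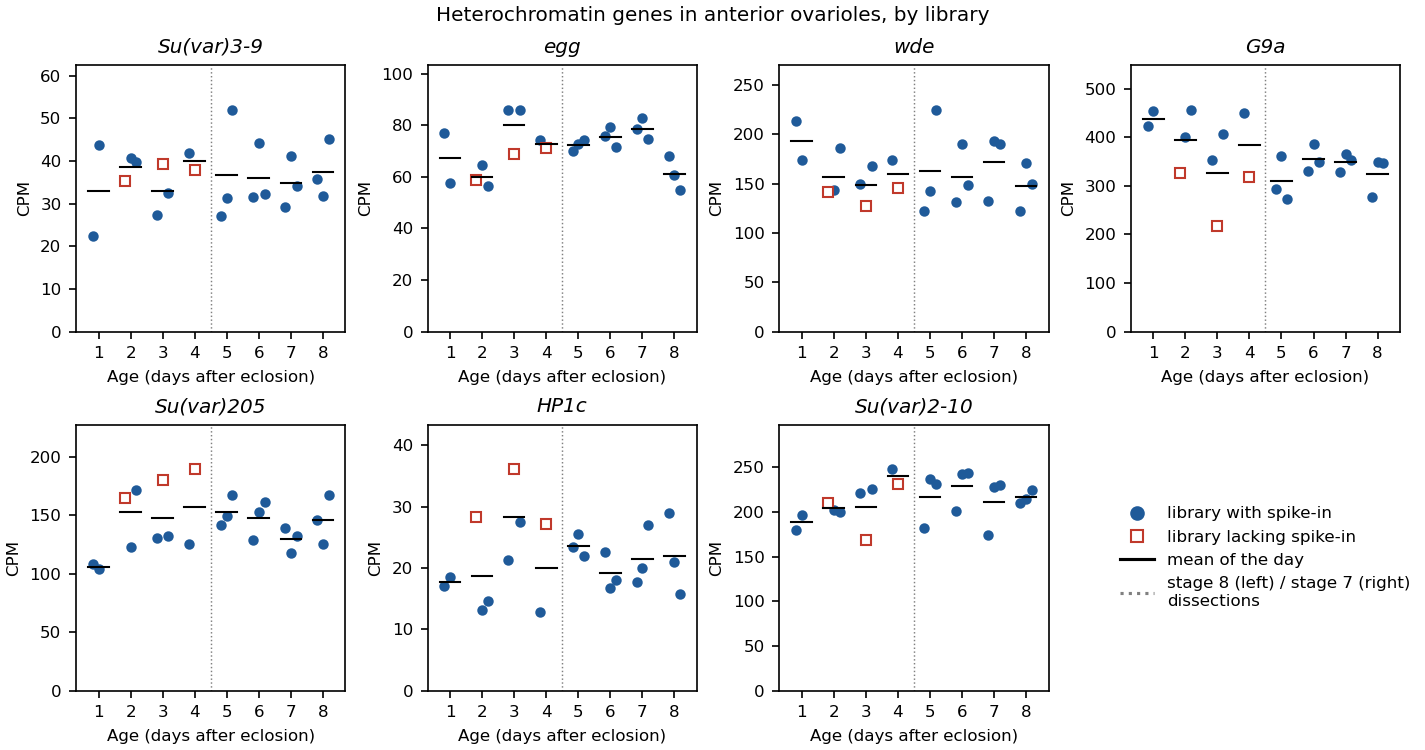
CPM of each gene in every library against age in days after eclosion; blue dots are libraries with spike-in, open red squares the 3 libraries lacking it, black bars the mean of a day, and the dotted line parts the stage 8 dissections (left) from the stage 7 dissections (right). Within each panel days 5 to 8 overlap days 1 to 4, and the red squares lie low for G9a and high for HP1c.

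The 7 genes did not pass the test between the age series. Each gene was tested, older series against younger and each as the mean of its days, with edgeR's quasi-likelihood test over 8024 genes, and a gene was called at a Benjamini-Hochberg adjusted p below 0.05. None of the 7 was called, against a background of 8.82% of all tested genes (708 of 8024), 4.06% called higher and 4.76% called lower. Leaving out day 1 replicate 1 lowered the count of genes called to 401, and no single library left out made any of the 7 pass. The median log2 change of the 7 was 0.00, and that of all tested genes -0.02. On counts simulated from these libraries, 38% of 1.5-fold and 84% of 2-fold differences between the series were recovered.

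The 95% intervals of this comparison come from the fit over all 22 libraries, which had no term for library type. They do not cover shifts between the kinds of younger library, which are given further below. Among the methyltransferase genes, Su(var)3-9 had a log2 change of 0.00 ± 0.14 (SE; 95% interval -0.28 to 0.29; edgeR adjusted p = 0.997), and egg had 0.04 ± 0.08 (-0.12 to 0.20; adjusted p = 0.793). The cofactor gene wde had -0.03 ± 0.12 (-0.27 to 0.20; adjusted p = 0.898). G9a had the largest change, -0.20 ± 0.10 (-0.41 to 0.01; adjusted p = 0.248), which is 0.872 times its level in days 1 to 4. On the linear scale the interval was 0.922 to 1.15 times for egg and 0.752 to 1.01 times for G9a.

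The readers gave no call either. Su(var)205 had a log2 change of 0.04 ± 0.10 (95% interval -0.16 to 0.24; edgeR adjusted p = 0.849), and HP1c 0.00 ± 0.16 (-0.33 to 0.33; adjusted p = 1.000). Su(var)2-10 had 0.07 ± 0.08 (-0.10 to 0.23; adjusted p = 0.668).

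The 3 libraries lacking spike-in bear on this comparison, so it was also made without them and with them alone as the younger series. Against the other 7 libraries of days 1 to 4, G9a fell by 0.33 ± 0.08 on the log2 scale (SE; 95% interval -0.50 to -0.17; edgeR adjusted p = 0.00714), to 0.794 times its level, and was the only 1 of the 7 called. The background of that comparison was 13.5% of 8563 tested genes, 6.74% called higher and 6.77% called lower. G9a averaged 334 ± 35.8 CPM in days 5 to 8 (SD, n = 12) and 421 ± 37.8 CPM in those 7 libraries. HP1c then had a log2 change of 0.37 ± 0.17 (adjusted p = 0.146) and Su(var)205 of 0.20 ± 0.09 (adjusted p = 0.171).

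With only the 3 libraries lacking spike-in as the younger series the signs turned. G9a had a log2 change of 0.25 ± 0.11 (edgeR adjusted p = 0.113), HP1c of -0.48 ± 0.18 (adjusted p = 0.0715) and Su(var)205 of -0.29 ± 0.11 (adjusted p = 0.0672). None of the 7 was called there, against 19% of 7951 tested genes, 12.3% called higher and 6.72% called lower. The other 4 genes had log2 changes of -0.10 to 0.04 without the 3 libraries and of -0.03 to 0.22 against them alone.

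**Figure D4:**
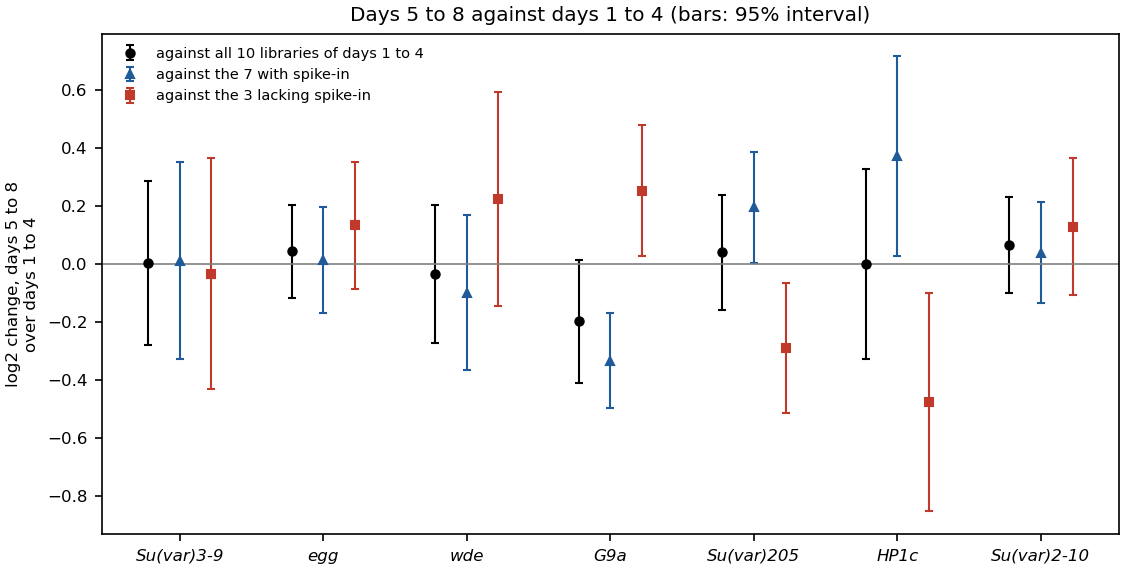
log2 change of days 5 to 8 over days 1 to 4 with its 95% interval for the 7 genes, against all 10 younger libraries (black circles), the 7 with spike-in (blue triangles) and the 3 lacking it (red squares). The interval of G9a lies below 0 against the 7 libraries with spike-in and above 0 against the 3 lacking it, and HP1c and Su(var)205 show the opposite order.

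The libraries lacking spike-in were then compared with the other libraries of the same days, 2 to 4, in a fit with a term for day. The library groups were defined by their spike-in counts and are no groups of the study, and the comparison was added after the data were seen. The groups also differ in depth and in the share of transposon insertion counts, and these differences cannot be told apart here. HP1c was higher in the libraries lacking spike-in, at 28.4, 36.2 and 27.2 CPM, against 13.1, 14.6, 21.3, 27.6 and 12.9 CPM in the other libraries. Su(var)205 was higher too, at 164, 180 and 190 CPM in the libraries lacking spike-in, against 123, 172, 130, 132 and 125 CPM in the others. G9a was lower, at 327, 218 and 318 CPM in the libraries lacking spike-in, against 400, 457, 352, 407 and 451 CPM in the others. The groups overlapped for HP1c and Su(var)205 and did not overlap for G9a. The share of tested genes whose groups did not overlap was not computed.

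The log2 change was 0.85 ± 0.22 for HP1c (SE; edgeR adjusted p = 0.00713), 0.39 ± 0.13 for Su(var)205 (adjusted p = 0.0409) and -0.56 ± 0.12 for G9a (adjusted p = 0.00157). These 3 of 7 calls stand against a background of 19.6% of the 8024 genes, 7.81% higher and 11.8% lower. G9a was called with any 1 of the 8 libraries left out. HP1c lost its call without day 2 replicate 1 (log2 change 0.72, adjusted p = 0.107). Su(var)205 kept its call only without day 2 replicate 3. It lost it without each of the other 7 libraries in turn, with adjusted p up to 0.203, and also by DESeq2 (adjusted p = 0.0648) and with DESeq2 size factors (adjusted p = 0.0810).

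The other 4 genes did not pass. Su(var)3-9 had a log2 change of 0.03 ± 0.23 (edgeR adjusted p = 0.940), which was -0.02 with DESeq2 size factors, egg had -0.15 ± 0.12 (adjusted p = 0.415), wde had -0.26 ± 0.18 (adjusted p = 0.334) and Su(var)2-10 had -0.15 ± 0.12 (adjusted p = 0.431).

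The change with library type went with exon length over all genes. The median log2 change was 0.34 for the 1153 genes with under 1 kb of exon, 0.29 for 1 to 2 kb (2454 genes), 0.01 for 2 to 4 kb (2555 genes), -0.33 for 4 to 6 kb (982 genes) and -0.67 for over 6 kb (880 genes). HP1c and Su(var)205, in the shortest classes, had 0.85 and 0.39, and G9a, in the longest, had -0.56. The middle 50% of genes spanned -0.02 to 0.62 in the class of HP1c, 0.06 to 0.50 in that of Su(var)205 and -0.93 to -0.43 in that of G9a. The part of exon length in the values of these genes was not tested. In the comparison of the age series without the 3 libraries, the class of G9a had a median log2 change of -0.17 beside -0.33 for G9a, and with all libraries -0.01 beside -0.20. The follicle and escort cell markers also moved with library type, at 546 to 682 CPM in the 3 libraries lacking spike-in, against 864 to 1139 CPM in the rest of days 2 to 4, and their part was not tested.

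**Figure D5:**
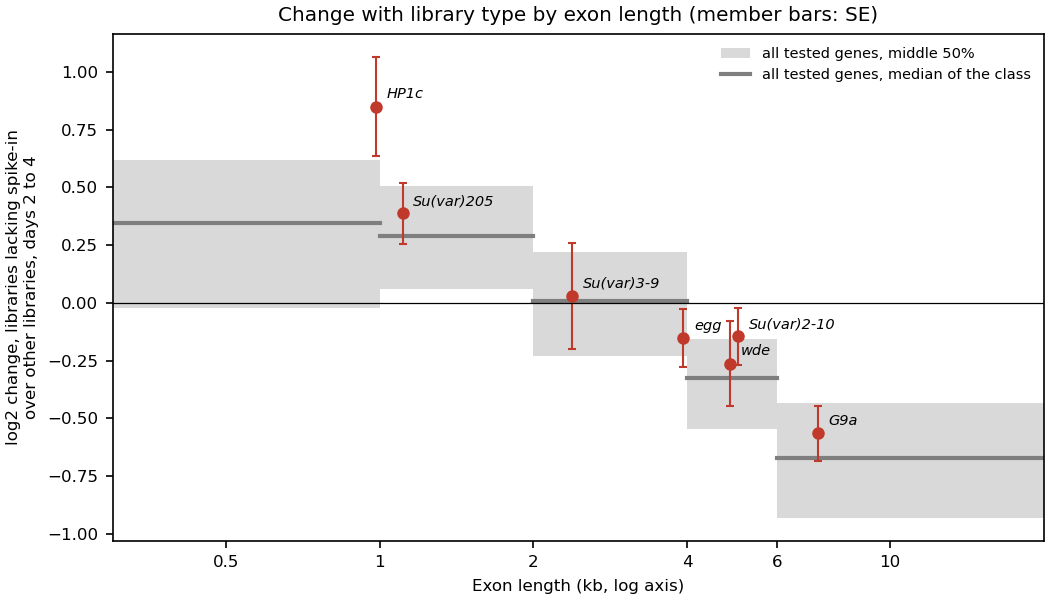
log2 change of the 3 libraries lacking spike-in over the other libraries of days 2 to 4 against exon length in kb (log axis); grey bands and lines give the middle 50% and the median of all tested genes in 5 classes of length, and red points the 7 genes with their SE. HP1c and Su(var)2-10 lie above the band of their class and the other 5 genes within it.

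Within an age series none of the 7 genes passed the test. For any difference among days 1 to 4, edgeR called 0 of the 7, against 0.0249% of all genes (2 of 8024; 650 at an unadjusted p under 0.05, and 55 called by DESeq2). The smallest adjusted p of the 7 were those of Su(var)205 (edgeR adjusted p = 0.623) and egg (adjusted p = 0.635). For any difference among days 5 to 8, 0 of the 7 were called, against 0.0125% of all genes (1 of 8024; 17 by DESeq2). The edgeR adjusted p of each of the 7 was 1.000 there. DESeq2 called none of the 7 in these tests.

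Day 4 against day 1 gave the largest change for Su(var)205, with 125 and 190 CPM on day 4, against 108 and 104 CPM on day 1. The log2 change was 0.58 ± 0.22 (SE; edgeR adjusted p = 0.362). It was 0.28 without day 4 replicate 2, the library of day 4 that lacks spike-in, and 0.88 without day 4 replicate 1. Su(var)2-10, at 248 and 231 CPM on day 4 and 180 and 196 CPM on day 1, had 0.35 ± 0.19 (adjusted p = 0.496). None of the 7 was called, against 0.0374% of all genes (3 of 8024), and the fit recovered 30% of simulated 2-fold changes here.

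Day 8 against day 5 gave 0 calls over all genes (0%; 234 at an unadjusted p under 0.05; 1 by DESeq2). egg had the largest change, with 68.1, 60.6 and 55.0 CPM on day 8, against 69.9, 72.9 and 74.3 CPM on day 5. These days did not overlap, and the log2 change was -0.24 ± 0.14 (SE; edgeR adjusted p = 1.000). The other 6 genes had log2 changes of -0.14 to 0.07. The change of day 8 over day 5 was also set against that of day 4 over day 1, and no gene was called by edgeR (0%; 807 at an unadjusted p under 0.05; 2 by DESeq2). Su(var)205 had the largest difference of these changes, -0.65 ± 0.29 on the log2 scale (SE; edgeR adjusted p = 0.460), and -0.34 without day 4 replicate 2.

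Likeness of the 7 genes to one another was measured as the root mean square difference of log2 CPM over the 22 libraries, with each gene centred on its own mean, and is a description of libraries that share depth and dissection. The closest pair was egg and Su(var)2-10 at 0.22, and the farthest was G9a and HP1c at 0.58. egg and its cofactor gene wde differed by 0.29, and the HP1 genes Su(var)205 and HP1c by 0.37. For each gene the median over all tested genes lay between 0.38 and 0.50. Of the 21 pairs, 15 were closer than both genes' medians, and 5 of the other 6 held HP1c, the gene with the fewest counts. The measure also grows with each gene's own spread between libraries. Pairs of other genes, or of genes of like level, were not tallied, so the count does not show that the 7 genes vary together.

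By the same measure the tested genes most like Su(var)205 were CG6767 and Ran, which encodes a GTPase of nuclear transport, at 0.13 each. Those most like Su(var)3-9 were Ns3 (0.19) and l(2)tid (0.20), and those most like egg were tkv, a receptor gene of the BMP pathway, and peng (0.15 each). Next to wde stood CG34133 and Pmp70 (0.18 each), and next to G9a stood Evi5 and smg, a gene for a translational repressor (0.14 each). GstE6 (0.23) and NiPp1 (0.25) were nearest to HP1c, and Kap-alpha1, an importin gene, and swm (0.12 each) to Su(var)2-10.

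Of 66 genes in 10 lists related to these 7 by function or location, 60 passed the filter and 4 were called between the age series, a share near the background of 8.82%. Of these, ash1 and Mes-4 encode histone methyltransferases for residues other than H3K9, and lwr and pzg belong to the SUMO pathway and to the opponents of heterochromatin. The genes that could not be tested were HP1e, HP6, HDAC3, qjt, SkpE and CG34434, each with a mean of at most 0.501 CPM in either series.

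In the SUMO pathway list 1 of 7 tested genes was called, as higher, against 4.06% of all tested genes called higher. The median log2 change of the list was 0.06. lwr, the SUMO-conjugating enzyme gene, averaged 246 ± 25.0 CPM in days 5 to 8 (SD, n = 12) and 210 ± 31.1 CPM in days 1 to 4 (n = 10). It rose by 0.26 ± 0.08 on the log2 scale (SE; edgeR adjusted p = 0.0458). The call ended without the 3 libraries lacking spike-in (0.22, adjusted p = 0.0841), with DESeq2 size factors (0.26, adjusted p = 0.0504) and with no filter (0.27, adjusted p = 0.0869). It remained with 1 library left out only for replicates 2 and 3 of day 2, replicate 3 of day 3 and replicate 1 of days 5, 6, 7 and 8.

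Among 3 opponents of heterochromatin, 1 was called, as higher, against 4.06% of all tested genes called higher. The list had a median log2 change of 0.08. pzg, which encodes a zinc finger protein of open chromatin, averaged 660 ± 59.3 CPM in days 5 to 8 (SD, n = 12) and 501 ± 94.5 CPM in days 1 to 4 (n = 10). It rose by 0.41 ± 0.10 on the log2 scale (SE; edgeR adjusted p = 0.0102), and stayed called with each of the 22 libraries left out in turn. Its log2 change was 0.27 without the 3 libraries lacking spike-in and 0.75 against those alone, and it was itself lower in them (-0.57 ± 0.10, adjusted p = 0.000247).

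Of 10 other SET domain methyltransferase genes, 2 were called lower, against 4.76% of all tested genes called lower. The difference of so short a list from that share was not tested. The list had a median log2 change of -0.04. Mes-4, an H3K36 methyltransferase gene, averaged 140 ± 15.1 CPM in days 5 to 8 (SD, n = 12) and 175 ± 24.7 CPM in days 1 to 4 (n = 10). It fell by 0.32 ± 0.09 on the log2 scale (SE; edgeR adjusted p = 0.0274). The call ended against the 3 libraries lacking spike-in alone (-0.14, adjusted p = 0.435). It also ended without day 1 replicate 1 (adjusted p = 0.0823), day 4 replicate 1 (adjusted p = 0.0961), day 6 replicate 3 (adjusted p = 0.0553) or day 8 replicate 3 (adjusted p = 0.0514).

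ash1, a trithorax-group methyltransferase gene, averaged 104 ± 9.37 CPM in days 5 to 8 (SD, n = 12) and 133 ± 34.9 CPM in days 1 to 4 (n = 10). It fell by 0.36 ± 0.11 on the log2 scale (SE; edgeR adjusted p = 0.0483). Without day 4 replicate 1, its highest library at 211 CPM, the log2 change was -0.18 (adjusted p = 0.251). The call remained with 1 library left out only for replicate 1 of days 2, 5 and 8 and replicate 2 of days 3 and 4. It also ended with DESeq2 size factors (adjusted p = 0.0596) and with a filter of 1 CPM in 6 libraries (adjusted p = 0.0509). Against the 3 libraries lacking spike-in alone the sign turned, at 0.05.

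The remaining lists had no call between the series. The 10 tested readers of the HP1 family and heterochromatin had a median log2 change of -0.15, with Su(var)2-HP2, a partner of HP1a and the most abundant of them, at 245 ± 33.6 CPM in days 5 to 8 and 256 ± 54.1 CPM in days 1 to 4 (SD). Against the 3 libraries lacking spike-in alone it was called higher (log2 change 0.36; edgeR adjusted p = 0.0275). The 7 tested genes for removal of H3K9 marks had a median of 0.01, with CoRest, a corepressor gene, at 179 ± 24.6 CPM in days 5 to 8 and 161 ± 25.3 CPM in days 1 to 4. The 8 genes of Piwi-guided silencing had a median of 0.09. piwi itself averaged 487 ± 79.9 CPM in days 5 to 8 and 411 ± 66.2 CPM in days 1 to 4 (log2 change 0.28 ± 0.10; edgeR adjusted p = 0.0798), and DESeq2 called it (adjusted p = 0.0457), as did edgeR with no filter (0.30, adjusted p = 0.0423) and without day 6 replicate 2 (0.33, adjusted p = 0.0291).

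The 3 genes of the HP1c complex had a median log2 change of 0.20, and woc, the partner that HP1c binds, averaged 654 ± 41.4 CPM in days 5 to 8 and 672 ± 101 CPM in days 1 to 4 (SD), and was called higher against the 3 libraries lacking spike-in alone (0.26; edgeR adjusted p = 0.0323). Phf7, a gene of the male germline that egg keeps off in female germ cells, averaged 62.4 ± 11.5 CPM in days 5 to 8 and 57.7 ± 5.03 CPM in days 1 to 4, with a log2 change of 0.13 ± 0.10 (SE; edgeR adjusted p = 0.479). The counts are per gene and do not tell its transcripts apart. The 10 genes that lie within heterochromatin had a median of 0.08. RpL5 averaged 2643 ± 241 CPM in days 5 to 8 and 2423 ± 556 CPM in days 1 to 4 (log2 change 0.15 ± 0.10; adjusted p = 0.424), and was called without the 3 libraries lacking spike-in (0.33, adjusted p = 0.00157). eIF-2gamma, which shares exons with Su(var)3-9, averaged 374 ± 33.2 CPM in days 5 to 8 and 353 ± 44.0 CPM in days 1 to 4 (log2 change 0.09 ± 0.07; adjusted p = 0.528).

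None of the 60 genes was called by edgeR for any difference among days 1 to 4 or days 5 to 8, for day 4 against day 1, for day 8 against day 5 or for the difference of these changes. With library type, 20 of the 60 were called, against the background of 19.6%. The medians were -0.52 for the 10 other SET domain genes and 0.26 for the 10 genes within heterochromatin. These SET domain genes had from 2665 bp of exon (E(z)) to 14052 bp (trx). Over all tested genes the median was 0.01 for 2 to 4 kb of exon, -0.33 for 4 to 6 kb and -0.67 for over 6 kb. The part of exon length in the calls of these lists was not tested.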

How the data were processed

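The authors deposited raw read counts, whole numbers per annotated feature and library, not normalized. Per the submitters' processing notes the authors used HTSeq 0.6.1p1, HISAT2 2.0.1, CASAVA 1.8.2 and SAMtools 0.1.2, and per the labels reads were single-end and stranded. The deposited annotation is FlyBase release 6.07. The sources used here do not say how a read over several features was counted, so genes that share exons are uncertain. Features of transposon insertions, which name no gene (1.46 to 4.11% of a library's counts), and spike-in transcripts stayed out of library sizes and tests.

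Genes were tested with edgeR 4.0.16 in R 4.3.3: TMM normalization, the default filter (minimum count 10, leaving 8024 genes), quasi-likelihood F-tests with a coefficient per day over 22 libraries (14 residual degrees of freedom; 13 with the term for library type), Benjamini-Hochberg adjustment over all tested genes and a threshold of 0.05. The common dispersion corresponds to a biological coefficient of variation of 23.2%. The 95% intervals come from the fold change, its SE and the test's degrees of freedom. CPM were computed from TMM library sizes, and CPM per kb from the union of annotated exons. A count of 3 corresponds to 0.307 to 2.62 CPM, which covers counting error only. The code was tested on simulated data.

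All 7 genes are named. Of each related list, up to 3 called genes with the largest change are named or, with none called, the most abundant, and for each gene the 2 most alike. The genes and lists were chosen with earlier results of these data known, and the comparison by library type was added after the data were seen. Alternatives were DESeq2 1.42.0, DESeq2 size factors, other filters, the replicate number as a block, fits of an age series alone, without the 3 libraries lacking spike-in or with those alone, and leaving out each library.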

Additional observations from a re-analysis of the deposited data

How the results depend on the processing

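Of 735 tests of the 7 genes between days under the alternatives, 1 passed, that of G9a without the 3 libraries lacking spike-in. Counts of genes called by day comparisons that call few genes rest on the tool. DESeq2 called 55 genes for any difference among days 1 to 4, 17 among days 5 to 8, 13 for day 4 against day 1, 1 for day 8 against day 5 and 2 for the difference of these changes. With no filter on low counts the numbers were 275, 135, 121, 26 and 107. Fits of an age series alone called 0 genes for any difference among days 1 to 4 and for day 4 against day 1, and 4 for days 5 to 8. Without the 3 libraries lacking spike-in, 1157 genes (1 of the 7) were called between the age series, 16 among days 1 to 4, 5 among days 5 to 8 and 1 for the difference of changes, and with those 3 alone 1510 between the series. The cause of these shifts was not tested.

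Replicate numbers were not taken to pair the libraries, since the labels tie them to no shared batch and not every correlation of deviations from the day means exceeded 0.1 between libraries of the same number (-0.0656 to 0.257, median 0.118, in the older series and -0.506 to 0.387 in the younger). The data of the older series hold a hint of shared numbers: 9 of 12 libraries correlated best with their own number (4 of 10 in the younger series). Libraries of different numbers had a median of -0.0633, which is no separate evidence, since deviations from a day mean cancel within the day. In days 5 to 8 replicate 1 was the lowest library on 4 of 4 days for wde and for Su(var)2-10. It was the lowest on 3 of 4 days for G9a and Su(var)3-9, on 2 for Su(var)205, and on 1 for egg and HP1c. In days 1 to 4 it was the lowest on 3 of 4 days for Su(var)3-9 and HP1c and on 2 for Su(var)205 and G9a. It was so on 1 day for wde and Su(var)2-10 and on 0 for egg. With the replicate block 685 genes were called between the series, 3 among days 1 to 4, 2 among days 5 to 8, 11 for day 4 against day 1 and 1 for the difference of changes, and none of the 7 genes. Under the block piwi was called (0.32, adjusted p = 0.0313).

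Some changes turned sign, none of them called among the 7 genes. Between the series HP1c had a log2 change of 0.0096 with DESeq2 size factors, 0.011 with DESeq2, 0.0049 with no filter, 0.0036 with 1 CPM in 6 libraries, 0.026 with the replicate block and 0.37 without the 3 libraries, and Su(var)3-9 had -0.024 with the block. Against the 3 libraries alone Su(var)205 had -0.29, wde 0.22, G9a 0.25, Su(var)3-9 -0.033, RpL5 -0.17, eIF-2gamma -0.055 and ash1 0.053, while Su(var)2-HP2 (0.36, adjusted p = 0.0275) and woc (0.26, adjusted p = 0.0323) were called. Without the 3 libraries, day 4 against day 1 gave -0.42 for HP1c and 0.078 for G9a, and the difference of changes gave -0.022 for wde, 0.32 for HP1c and -0.0022 for G9a. For day 8 against day 5 Su(var)2-10 had 0.0062 with 1 CPM in 6 libraries, 0.0020 with the block and 0.0056 without the 3 libraries. By library type Su(var)3-9 had -0.021 with DESeq2 and -0.022 with DESeq2 size factors.

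Leaving out each library in turn gave 401 to 809 genes called between the series, 0 to 47 among days 1 to 4, 0 to 1 among days 5 to 8, 0 to 5 for day 4 against day 1, 0 to 1 for the difference of changes and 877 to 1777 by library type, with 1 to 3 of the 7 genes there. The lowest counts were those without day 1 replicate 1 between the series and without day 4 replicate 2 by library type, where 884, 898 and 1016 genes were called without day 2 replicate 1, day 4 replicate 1 and day 3 replicate 2. Between the series log2 changes ranged from -0.015 to 0.13 for Su(var)205, -0.11 to 0.011 for wde, -0.086 to 0.18 for HP1c, -0.086 to 0.16 for Su(var)3-9, -0.12 to 0.032 for Su(var)2-HP2 and -0.089 to 0.041 for woc. For day 4 against day 1 they ranged from -0.42 to 0.65 for HP1c, -0.42 to 0.079 for G9a, -0.033 to 0.37 for egg and -0.11 to 0.87 for Su(var)3-9, where the spread of the library left alone on its day is taken from the other days. For the difference of changes they ranged from -0.041 to 0.44 for wde, -0.75 to 0.32 for HP1c, -0.0029 to 0.50 for G9a and -0.84 to 0.14 for Su(var)3-9. For day 8 against day 5 they ranged from -0.17 to 0.043 for Su(var)205, -0.11 to 0.064 for Su(var)2-10, -0.31 to 0.16 for wde, -0.36 to 0.074 for HP1c, -0.015 to 0.20 for G9a and -0.15 to 0.36 for Su(var)3-9. By library type Su(var)3-9 ranged from -0.17 to 0.15.

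Depth limits HP1c most, with as few as 16 counts in a library, and on simulated counts 6% of 1.5-fold changes were recovered between days 4 and 1, and 2% between days 8 and 5, so that changes of that size between these days were rarely called.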
